A study of Rattus norvegicus with 12 samples.

Results

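The circadian clock genes described here are Per1, Per2, Per3, Cry1, Cry2, Clock, Nr1d1, Nr1d2, Dbp and Bhlhe40. They were taken by symbol from a table of 23526 genes measured by RNA sequencing in rat lumbar spinal cord, segments L3 to L5. All 10 were found and all 10 were among the 18714 genes with enough counts to be tested. The study compared sham samples, labelled day 0, with samples collected 3, 7 and 14 days after spinal cord injury (SCI), with 3 libraries in each of the 4 groups. The labels give no strain, sex, age or genotype, no level or kind of injury, and do not say whether replicates are different animals. The p-values therefore cover the spread among these libraries alone, and that spread may be technical. Sham tissue was labelled day 0 only, so each comparison with sham sets an SCI day against the same 3 libraries. The labels also give no clock hour of tissue collection, so the phase of the rhythm in each sample is unknown.

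The mammalian clock is a feedback loop of transcription. CLOCK and its partner BMAL1 (gene Arntl) bind E-box sequences and switch on the Per and Cry genes, and the PER and CRY proteins return to the nucleus and inhibit CLOCK and BMAL1. The same activators drive Nr1d1 and Nr1d2, whose products REV-ERBα and REV-ERBβ repress Arntl through RORE sequences, and they drive Dbp, whose product binds D-boxes together with the related factors TEF and HLF. BHLHE40 (DEC1) competes for E-boxes as a repressor and is also induced by hypoxia and cytokines in many cells. Per1 can be induced directly by neuronal activity, through CRE sequences, and by glucocorticoids, through the glucocorticoid receptor. Clocks run in neurons and glia of the central nervous system outside the master pacemaker.

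At day 3 Bhlhe40 rose and Per3 fell relative to sham, to 1.88-fold and 0.455-fold of the sham level, and they were the 2 of 10 clock genes that passed the test. On day 7 and day 14 none of the 10 passed. Dbp had the largest estimated difference from sham on each of the 3 days, but it did not pass on any of them. Its libraries spread widely within groups. Over the 12 libraries, Per3 was high where Dbp was high, and the activator gene Arntl was low there.

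Sequences upstream of the genes were read from RefSeq windows on the rat build GRCr8, each 300 bases long with 250 before and 50 after the start of the gene, since the loop works through short elements in these regions. Windows were found for 9 of 10 genes, 11 windows in all, and Cry1 had none. Searched on both strands, the E-box CACGTG was in 6.42% of all 33469 windows, the E-prime box CACGTT in 4.83%, the D-box TTATGTAA in 0.893%, the RORE TAGGTCA in 2.63% and the CRE TGACGTCA in 1.83%. At least 1 of these was in the windows of 4 clock genes, namely Bhlhe40, Nr1d1, Per2 and Cry2. The share of all windows with any of these elements was not computed, so the count of 4 is not read as high or low. These letters were not in the windows of Per1, Per3, Clock, Nr1d2 and Dbp, which says nothing of elements elsewhere. The stretches printed are a selection of those that carry the elements named above in a gene that the results below describe. Not printed are the E-prime boxes of Cry2 (212 bases before the start) and Nr1d1 (174 bases before a start). The E-box of Tef (198 bases before a start) is not printed either. Capitals mark the element, and each stretch is written 5′ to 3′ on the strand of the gene. The Bhlhe40 E-box begins 220 bases before the start (chr4:143174200-143174285, plus strand), the Nr1d1 E-box 191 bases before an alternative start (chr10:84229590-84229695, minus strand) and the Per2 D-box 192 bases before it (chr9:99497128-99497235, minus strand). The Per2 E-prime box lies 62 bases before the start (chr9:99497000-99497105, minus strand), and the RORE of Bmal1, as RefSeq names Arntl, 16 bases before the start (chr1:176766262-176766327, plus strand). A match is a description of the letters and was not tested as a binding site here.
Bhlhe40 E-box: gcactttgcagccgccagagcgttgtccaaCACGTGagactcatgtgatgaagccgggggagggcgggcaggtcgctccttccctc
Nr1d1 E-box: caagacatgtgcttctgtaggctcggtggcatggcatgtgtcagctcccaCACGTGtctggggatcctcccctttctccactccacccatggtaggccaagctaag
Per2 D-box: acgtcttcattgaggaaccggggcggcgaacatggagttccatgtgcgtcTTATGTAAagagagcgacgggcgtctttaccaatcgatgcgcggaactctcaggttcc
Per2 E-prime box: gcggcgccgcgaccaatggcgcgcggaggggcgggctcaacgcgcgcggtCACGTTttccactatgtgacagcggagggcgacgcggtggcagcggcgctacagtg
Bmal1 RORE: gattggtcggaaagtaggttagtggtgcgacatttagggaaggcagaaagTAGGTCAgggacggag

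Libraries held 63.0 to 79.1 × 1e+06 counts, and the clock genes had 937 to 10028 counts in each, so counting error was small beside the spread between libraries. Markers of neurons, astrocytes and oligodendrocytes were above 0 in every library, but so were those of Schwann cells, endothelium and microglia and macrophages. At this depth a value above 0 is no check of the labelled tissue. Marker levels differed within groups. The 12 neuronal markers summed to 530 and 427 CPM (counts scaled to a library total of 1e+06) in SCI day 3 replicates 1 and 3, to 3412 CPM in replicate 2 of that day, to 3383 to 4523 CPM in sham, to 2642 to 3740 CPM at day 7 and to 2566 to 3793 CPM at day 14. Schwann cell markers, from nerve roots, summed to 38141 CPM in sham replicate 2 and 41475 CPM in SCI day 3 replicate 3, against 1572 to 23983 CPM in the others. Markers of sensory ganglion neurons summed to 66.7 CPM in SCI day 3 replicate 2 and to 208 and 352 CPM in SCI day 14 replicates 1 and 2, against 5.45 to 11.4 CPM elsewhere. Endothelial markers summed to 279 to 395 CPM in sham and were higher in every SCI library, at 607 to 1588 CPM at day 3, 535 to 742 CPM at day 7 and 462 to 545 CPM at day 14. Microglia and macrophage markers summed to 167 to 236 CPM in sham, 240 to 1022 CPM at day 3, 613 to 1216 CPM at day 7 and 244 to 984 CPM at day 14. At day 3, 5 of 7 endothelial markers rose, and 4 of 8 astrocyte and 3 of 8 oligodendrocyte markers fell, beside 6.70% of all genes called. Of the 8 astrocyte markers 2 had a positive log2 fold change, and neither passed. None of the 12 neuronal or 8 microglia and macrophage markers passed. Nor did any of the 6 Schwann cell, 6 sensory ganglion, 5 erythrocyte or 6 muscle markers. In whole tissue, fewer cells of a type and less RNA per cell cannot be told apart. The part of these differences in the results below was not tested beyond leaving libraries out.

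Levels between genes were compared per length, on the authors' FPKM scale (counts per kilobase of gene model and per 1e+06 counts). In sham, Dbp stood first at 29.0 ± 11.7 FPKM (SD, n = 3, as for the values that follow), Nr1d1 next at 27.6 ± 8.80 FPKM and Cry2 at 24.9 ± 1.76 FPKM. Nr1d2 measured 20.9 ± 3.48 FPKM, Per3 15.6 ± 3.11 FPKM, Per1 15.3 ± 6.70 FPKM and Bhlhe40 14.1 ± 2.40 FPKM. Clock, Per2 and Cry1 were the lowest, at 8.12 ± 0.596, 7.27 ± 1.495 and 6.59 ± 0.576 FPKM. Only between Bhlhe40 (11.4 to 16.0 FPKM) and Clock (7.77 to 8.81 FPKM) did the libraries of neighbours in this order not overlap. The output gene Dbp varied most over the 12 libraries, with its highest CPM 9.18 times its lowest, followed by Per1 with 3.37 times and Per3 with 2.88 times, and Cry2 varied least with 1.56 times. In sham alone the coefficient of variation was 43.6% for Per1 and 40.3% for Dbp, and 7.00% for Cry2 and 7.43% for Clock.

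**Figure D1:**
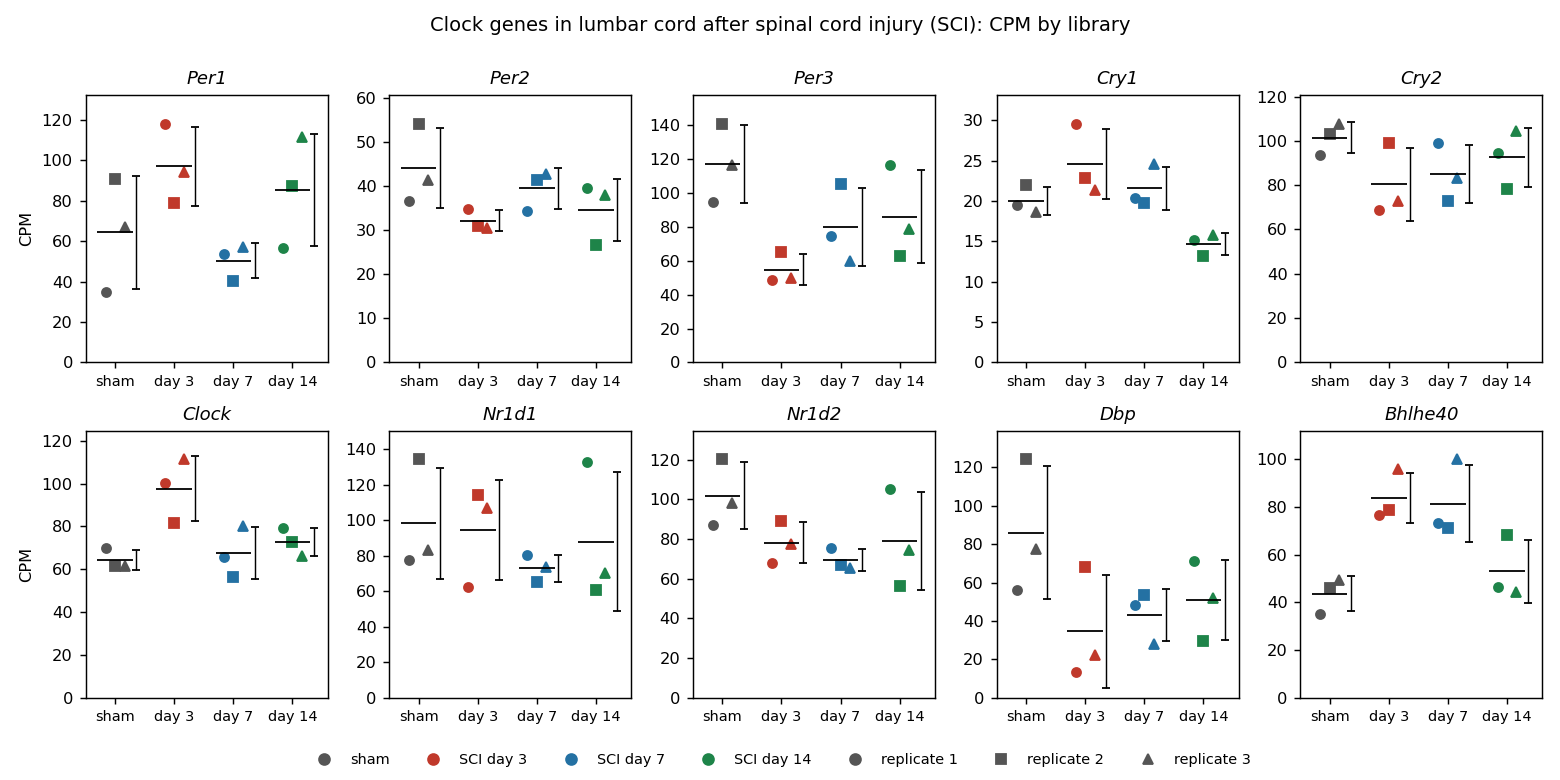
CPM (y axis, starting at 0) of each clock gene in each library, by group; points are libraries (marker shape gives the replicate), horizontal lines are group means and the bars beside them ± SD, n = 3. The 3 day 3 libraries of Bhlhe40 (76.7 to 95.9 CPM) lie above the sham libraries and those of Per3 (48.9 to 65.2 CPM) below them, while Dbp spreads from 13.5 to 124 CPM.

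Day 3 against sham asked which clock genes differed early after injury. Bhlhe40 (ENSRNOG00000007152), the E-box repressor, measured 35.4, 46.2 and 49.5 CPM in the 3 sham libraries and 76.7, 78.9 and 95.9 CPM in the 3 day 3 libraries. All 3 day 3 values lay above all 3 sham values, and replicate 2, whose neuronal markers were near the sham sum but which also carried sensory ganglion transcripts, was among them at 78.9 CPM. Bhlhe40 rose from 43.7 ± 7.39 to 83.8 ± 10.5 CPM (SD, n = 3 each), a log2 fold change of 0.91 ± 0.22 (SE, edgeR quasi-likelihood test, Benjamini-Hochberg adjusted p = 0.0430). Per3 (ENSRNOG00000018413), a period gene that is dispensable for the core loop in mice, measured 94.6, 141 and 117 CPM in sham and 48.9, 65.2 and 49.9 CPM at day 3. Every day 3 library was below every sham library, including replicate 2. Per3 fell from 117 ± 23.2 to 54.7 ± 9.12 CPM, a log2 fold change of -1.14 ± 0.27 (SE, edgeR FDR-adjusted p = 0.0395). The endothelial and the microglia and macrophage marker sums, like Bhlhe40, were above sham in all 3 day 3 libraries. For microglia and macrophages the margin was narrow in replicate 2, at 240 CPM against at most 236 CPM in sham. The part of these sums in either result was not tested. These 2 of 10 stand beside 6.70% of all 18714 genes called at day 3 by the same rule, 1254 genes of which 1030 were higher and 224 lower.

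Both calls lay near the limit of 0.05 and depended on single libraries. Left out in turn, each of the 12 libraries gave a Per3 log2 fold change between -1.27 and -1.001 and an edgeR FDR-adjusted p between 0.00962 and 0.164, with Per3 called in 4 of the 12 fits. Bhlhe40 lay between 0.77 and 1.01 with an edgeR FDR-adjusted p between 0.0138 and 0.164, and it was called in 3 of 12. The direction of both genes was the same in all 24 other settings tried. The calls of both were lost without any of the 3 sham libraries, without SCI day 3 replicate 1 or 3, without SCI day 7 replicate 1 or 2, and without SCI day 14 replicate 3, and that of Bhlhe40 also without SCI day 14 replicate 1. With both neuron-poor libraries of day 3 left out, the log2 fold change was -0.90 for Per3 and 0.81 for Bhlhe40, and with 1 library left at day 3, assumed to vary like those of the other groups, neither passed (edgeR FDR-adjusted p = 0.900 and 0.890).

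**Figure D2:**
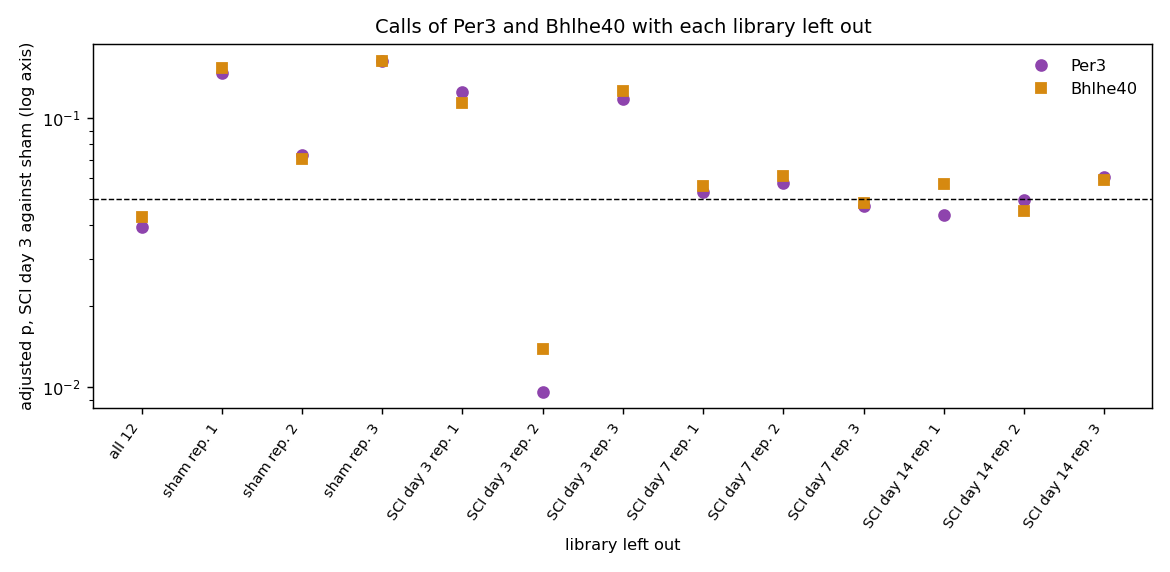
Adjusted p (edgeR, log axis) of Per3 and Bhlhe40 for SCI day 3 against sham with all 12 libraries and with each library left out; the dashed line is 0.05. Both points lie lowest without SCI day 3 replicate 2 (0.00962 and 0.0138) and highest without sham replicate 3 (0.164 for both).

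The other period genes did not pass at day 3. Per2, which with Per1 forms the core of the repressing complex, measured 36.7, 54.1 and 41.4 CPM in sham and 34.9, 31.0 and 30.6 CPM at day 3. The groups did not overlap, with a narrow gap between 34.9 and 36.7 CPM (log2 fold change -0.49 ± 0.18, SE; edgeR FDR-adjusted p = 0.0908). Per1, the period gene most readily induced by stimuli, measured 35.1, 90.9 and 66.9 CPM in sham and 118, 79.1 and 94.1 CPM at day 3. The sham values spanned a 2.59-fold range and overlapped those of day 3 (log2 fold change 0.56 ± 0.33, SE; edgeR FDR-adjusted p = 0.240).

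Clock (ENSRNOG00000002175), the activator that pairs with BMAL1, measured 69.8, 61.6 and 61.5 CPM in sham and 100.1, 81.5 and 111 CPM at day 3. All 3 day 3 libraries were above sham, but the gene did not pass (log2 fold change 0.57 ± 0.18, SE; unadjusted p = 0.00993, edgeR FDR-adjusted p = 0.0700). The cryptochromes, which block CLOCK and BMAL1 directly, overlapped with sham: Cry1 had a log2 fold change of 0.26 ± 0.16 (SE, edgeR FDR-adjusted p = 0.256) and Cry2 one of -0.37 ± 0.18 (SE, edgeR FDR-adjusted p = 0.170). Cry2 measured 93.7, 103 and 108 CPM in sham, 99.2 CPM in SCI day 3 replicate 2 and 69.0 and 73.0 CPM in replicates 1 and 3. At day 3, only the libraries low in neuronal transcripts were thus below the sham range in Cry2. On the later days Cry2 also reached below that range, with 72.8 to 99.1 CPM at day 7 and 78.3 to 105 CPM at day 14. Neuronal markers summed to 2642 to 3740 CPM at day 7 and to 2566 to 3793 CPM at day 14, against 3383 to 4523 CPM in sham. Their part in Cry2 was not tested. Without replicate 2 of day 3, Cry2 and Clock were called together with Dbp, Per3 and Bhlhe40, 5 of 10, at a setting that called 37.1% of all genes tested.

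The REV-ERB genes, repressors of Arntl, were not called at day 3. Nr1d1 (ENSRNOG00000009329) measured 77.3, 134 and 83.3 CPM in sham and 62.3, 114 and 107 CPM at day 3, ranges that share the span from 77.3 to 114 CPM, with replicate 1 of day 3 below every sham library. Its log2 fold change of -0.08 ± 0.34 (SE, edgeR FDR-adjusted p = 0.886) turned positive without sham replicate 2 (0.19) or without SCI day 3 replicate 1 (0.16). Nr1d1 overlaps Thra, a thyroid hormone receptor gene, on the opposite strand, and no source used here says whether counting used strand, so reads of their shared stretch cannot be told apart. Thra measured 171 to 182 CPM in sham, 151 CPM in SCI day 3 replicate 2 and 77.5 and 81.2 CPM in replicates 1 and 3. Nr1d2 measured 87.0, 120.2 and 98.3 CPM in sham and 68.2, 89.0 and 77.3 CPM at day 3, overlapping sham by 1 library (log2 fold change -0.41 ± 0.22, SE; edgeR FDR-adjusted p = 0.203).

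Dbp (ENSRNOG00000021027), the D-box activator and a direct output of CLOCK and BMAL1, measured 56.4, 124 and 77.5 CPM in sham. At day 3 it measured 13.5, 68.2 and 22.3 CPM in replicates 1, 2 and 3. The libraries low in neuronal transcripts were thus the 2 lowest of all 12, and replicate 2 lay inside the sham range. The log2 fold change of -1.34 ± 0.57 (SE, edgeR FDR-adjusted p = 0.124) was -2.27 without replicate 2 (edgeR FDR-adjusted p = 0.00617) and -0.38 without replicates 1 and 3 (edgeR FDR-adjusted p = 0.940). At day 7 Dbp measured 48.1, 53.6 and 28.0 CPM, all below sham (log2 fold change -1.03 ± 0.56, SE, edgeR FDR-adjusted p = 0.601). Neuronal markers in these day 7 libraries summed to 2642 to 3740 CPM, against 3383 to 4523 CPM in sham, and their part in Dbp was not tested. At day 14 Dbp measured 71.0, 29.5 and 51.7 CPM and overlapped sham (log2 fold change -0.79 ± 0.56, SE, edgeR FDR-adjusted p = 0.863).

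Counted together at day 3, 5 of 10 clock genes had an unadjusted p under 0.05, beside 35.3% of all genes tested. Bhlhe40 and Clock were higher, and Per2, Per3 and Dbp lower. The libraries of 4 did not overlap with sham, Bhlhe40 and Clock above it and Per2 and Per3 below it, beside 37.1% of all genes. With 10 genes, neither share is read as apart from that of all genes. The median log2 fold change of the 10 genes was -0.23, beside 0.03 over all genes tested, with 4 genes positive and 6 negative.

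On day 7 the clock genes were compared with the same sham libraries. None of 10 passed in edgeR, beside 0.0160% of all genes, which were 3 genes. Bhlhe40 measured 73.2, 71.1 and 100.03 CPM, again with every library above sham. Its log2 fold change was 0.86 ± 0.22 (SE, unadjusted p = 0.00283, edgeR FDR-adjusted p = 0.252). DESeq2 called Bhlhe40 at day 7 (adjusted p = 0.0236), and voom did not (adjusted p = 0.0520). The endothelial, microglia and macrophage, astrocyte and erythrocyte marker sums were likewise above sham in every day 7 library. Astrocyte markers summed to 8880 to 11305 CPM, against 2715 to 4932 CPM in sham. Erythrocyte markers summed to 2310 to 15143 CPM, against 422 to 1442 CPM in sham. The part of these sums in the Bhlhe40 result was not tested. Per3 measured 74.9, 105 and 60.0 CPM, of which replicate 2 lay inside the sham range (log2 fold change -0.60 ± 0.26, SE; edgeR FDR-adjusted p = 0.499). Nr1d2 measured 75.7, 67.2 and 65.3 CPM, all below sham (log2 fold change -0.59 ± 0.22, SE; edgeR FDR-adjusted p = 0.423). These 3 were the clock genes with an unadjusted p under 0.05, beside 9.89% of all genes. Bhlhe40, Nr1d2 and Dbp were the 3 of 10 whose libraries did not overlap with sham, beside 23.7%.

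The libraries of the remaining genes at day 7 overlapped those of sham. Clock, at 65.7, 56.2 and 80.3 CPM, overlapped sham again, with a log2 fold change of 0.03 ± 0.18 (SE, edgeR FDR-adjusted p = 0.971) whose sign turned without sham replicate 2 or 3 or without SCI day 7 replicate 3 (-0.019, -0.0087 and -0.12). Per1 measured 53.7, 40.5 and 56.9 CPM, all within the wide sham range (log2 fold change -0.38 ± 0.33, SE; edgeR FDR-adjusted p = 0.759). The other log2 fold changes were -0.20 for Per2, 0.06 for Cry1, -0.29 for Cry2 and -0.46 for Nr1d1, and that of Cry1 turned to -0.040 without SCI day 7 replicate 3. The median of the 10 was -0.34, beside -0.02 over all genes tested, with 7 negative.

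On day 14 none of 10 clock genes passed after adjustment, beside 0.0160% of all genes. Cry1 (ENSRNOG00000006622), a repressor of CLOCK and BMAL1, measured 19.5, 21.9 and 18.6 CPM in sham, 29.5, 22.9 and 21.4 CPM at day 3, 20.3, 19.7 and 24.6 CPM at day 7 and 15.1, 13.2 and 15.8 CPM at day 14. The 3 day 14 libraries were the lowest of the 12. Against sham the log2 fold change was -0.49 ± 0.16 (SE; unadjusted p = 0.0103, edgeR FDR-adjusted p = 0.594), and it did not pass. It was the 1 clock gene of 10 with an unadjusted p under 0.05, beside 7.40% of all genes, and the 1 whose libraries did not overlap with sham, beside 15.8%. Neither count is read as apart from these shares.

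Bhlhe40 at day 14 measured 46.4, 68.3 and 44.2 CPM, of which replicate 2 lay above sham and the other 2 inside it (log2 fold change 0.24 ± 0.22, SE; edgeR FDR-adjusted p = 0.891). Per3 measured 117, 63.0 and 79.0 CPM, and Nr1d1 measured 133, 60.6 and 70.1 CPM. In both genes replicate 1 was at a level reached in sham, while replicates 2 and 3 were below the sham range. Per2 and Nr1d2 had log2 fold changes of -0.38 and -0.41, Per1 one of 0.37, Clock 0.14 and Cry2 -0.18, and none of them passed. The sign of Nr1d1, -0.19, turned without sham replicate 2 (0.079) or without SCI day 14 replicate 2 (0.0033). The median of the 10 was -0.29, beside 0.01 over all genes tested, with 7 negative.

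**Figure D3:**
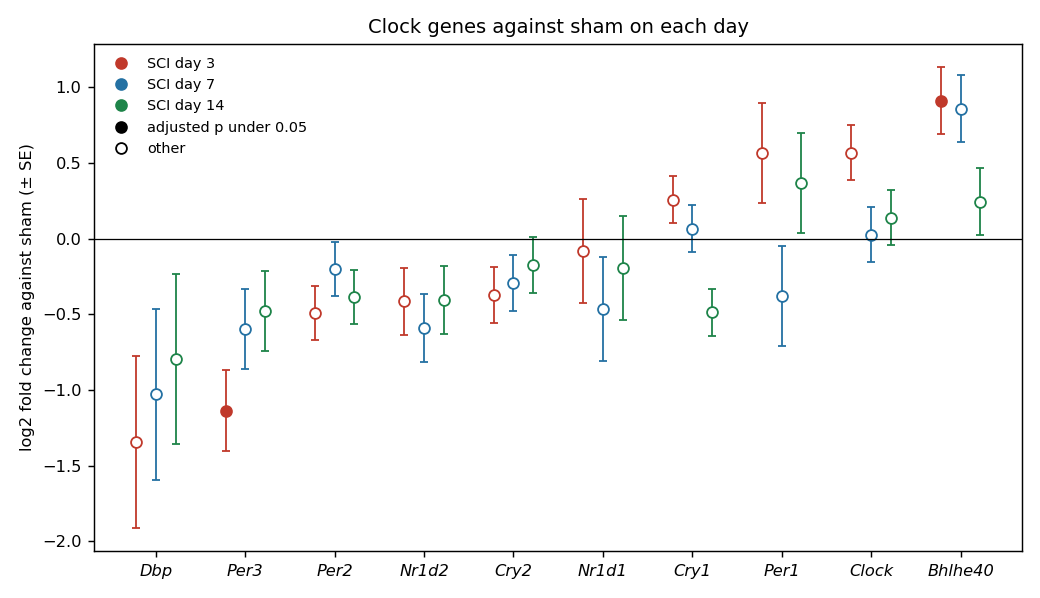
Log2 fold change against sham (y axis; bars ± SE) of each clock gene at day 3, 7 and 14, ordered by the day 3 value; filled points have an edgeR FDR-adjusted p under 0.05. The 2 filled points are Per3 (-1.14) and Bhlhe40 (0.91) at day 3, and all 3 days share the sham libraries.

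Between the days after injury none of 10 clock genes passed, and neither did any other gene (0.00% of 18714 in each of the 3 comparisons). From day 3 to day 7, Clock and Per1 had unadjusted p under 0.05, 2 of 10 beside 14.8% of all genes, with log2 changes of -0.54 ± 0.18 and -0.94 ± 0.33 (SE; edgeR FDR-adjusted p = 0.323 for both). From day 7 to day 14, 3 of 10 did, beside 3.67%: Cry1 (-0.55 ± 0.16) and Bhlhe40 (-0.62 ± 0.22) were lower and Per1 (0.75 ± 0.33, SE) higher, each with an edgeR FDR-adjusted p of 1. From day 3 to day 14, 4 of 10 did, beside 17.9%. These were Cry1 at -0.74 ± 0.16 (SE, edgeR FDR-adjusted p = 0.188), Bhlhe40 at -0.67, Clock at -0.43 and Per3 at 0.66. The 3 comparisons share libraries with each other. In the test of any difference among the 4 groups, none of 10 passed, beside 0.0427% of all genes, and 4 had an unadjusted p under 0.05, beside 19.5%. The smallest belonged to Bhlhe40 (unadjusted p = 0.00415) and Cry1 (unadjusted p = 0.00496), and the lowest edgeR FDR-adjusted p of the 10 was 0.143.

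Clock genes known to be wired together were then set against each other over the 12 libraries, as log2 CPM in 6 pairs. The pairs were chosen with earlier results of these data known. How often other pairs of genes reach such values was not computed, so the p-values are no measure of wiring. Dbp and Per3 rose and fell together, with Pearson's r = 0.89 (permutation p = 1e-04, adjusted over the 6 pairs 0.0006) and Spearman's rho = 0.92 (permutation p = 1e-04, adjusted 0.00042). Without SCI day 3 replicates 1 and 3, the libraries farthest from the median of Dbp, r was 0.82 (permutation p = 0.00231, adjusted 0.00693). With each group's mean subtracted, so that only differences among the replicates of a group remain, r was 0.80 (exact permutation within groups over 1296 arrangements, p = 0.000772, adjusted 0.00463). This relation therefore also held within the groups. Tissue marker sums differed among the replicates of a group as well, and their part in the relations of these pairs was not tested.

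Dbp and Arntl ran in opposite directions, with r = -0.86 (permutation p = 0.00033, adjusted 0.00099) and rho = -0.90 (permutation p = 0.00026, adjusted 0.00052). Without SCI day 3 replicates 1 and 3 r was -0.90 (adjusted permutation p = 0.00474), and within groups it was -0.78 (exact permutation, adjusted p = 0.0170). Nr1d1 and Nr1d2, the paired repressors, gave r = 0.84 (permutation p = 0.00067, adjusted 0.00134), rho = 0.90 (adjusted permutation p = 0.00042) and 0.91 within groups (exact permutation, adjusted p = 0.00463). Without sham replicate 2 and SCI day 14 replicate 1, the highest in Nr1d1, r was 0.67 and missed the limit after adjustment (permutation p = 0.0343, adjusted 0.0514).

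The remaining 3 pairs were weaker. Dbp and Nr1d1, both driven through E-boxes, gave r = 0.57 (permutation p = 0.0514, adjusted 0.0771), rho = 0.64 (adjusted permutation p = 0.0408), 0.76 without SCI day 3 replicates 1 and 3 (adjusted permutation p = 0.0207) and 0.73 within groups (exact permutation, adjusted p = 0.0648). Nr1d1 and Arntl, repressor and target, gave r = -0.38 (permutation p = 0.217, adjusted 0.261) and rho = -0.43 (permutation p = 0.161, adjusted 0.193), and -0.01 without sham replicate 2 and SCI day 14 replicate 1. Per1 and Per2 gave r = -0.20 (permutation p = 0.541, adjusted 0.541) and rho = -0.24 (permutation p = 0.457), and r = -0.17 without sham replicate 1 and SCI day 7 replicate 2. Within groups these were -0.47 and 0.36 (exact permutation, adjusted p = 0.272 and 0.434).

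**Figure D4:**
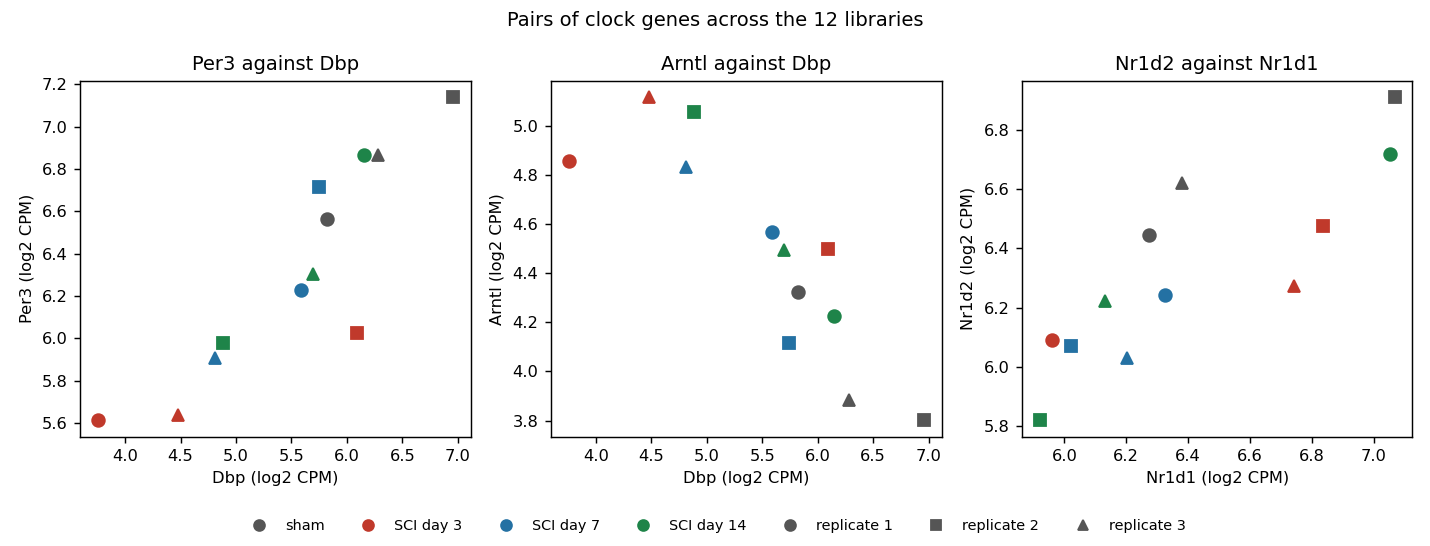
Log2 CPM of Per3 and Arntl against Dbp and of Nr1d2 against Nr1d1, 1 point a library; colour gives the group and marker shape the replicate. Per3 increases with Dbp (r = 0.89), Arntl decreases with it (r = -0.86), and Nr1d2 increases with Nr1d1 (r = 0.84).

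The libraries could be ordered by Dbp, an order chosen after the values were seen and given without a test. The 4 lowest in Dbp were SCI day 3 replicates 1 and 3, SCI day 7 replicate 3 and SCI day 14 replicate 2, at 13.5 to 29.5 CPM against 48.1 to 124 CPM in the other 8. The same 4 libraries were the 4 lowest in Per3 (48.9 to 63.0 against 65.2 to 141 CPM) and the 4 highest in Arntl (28.5 to 34.7 against 13.9 to 23.7 CPM). They were also the 4 lowest in Tef and Hlf, the other activators at D-boxes: Tef measured 63.3 to 101 CPM against 101 to 187 CPM, and Hlf 5.82 to 14.4 against 15.6 to 29.8 CPM. At the other end sham replicate 2 was highest of the 12 in Dbp (124 CPM), Per3 (141 CPM), Tef (187 CPM) and Hlf (29.8 CPM), and lowest in Arntl (13.9 CPM) and in Nfil3 (5.40 CPM), whose product represses at D-boxes. The 4 libraries lowest in Dbp were not the 4 highest in Nfil3, in which they ranked 1, 3, 2 and 5 from the top (18.3 to 40.3 against 5.40 to 19.1 CPM in the other 8). All 3 SCI days and no sham library are thus among the 4 lowest in Dbp. Their neuronal markers summed to 530, 427, 2948 and 2566 CPM, against 2642 to 4523 CPM in the other 8, and their Schwann cell markers to 10040, 41475, 14479 and 20779 CPM, against 1572 to 38141 CPM. Endothelial markers summed to 1588, 1005, 742 and 517 CPM in them, against 279 to 643 CPM. The part of these cell type differences in the shared order was not tested.

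Of the other transcription factors of the clock, 12 of 14 symbols matched, since the table lists BMAL1 and BMAL2 as Arntl and Arntl2, and 0 of 12 passed on any day against sham. At day 3 they had a median log2 fold change of -0.15, with 3 higher and 2 lower at an unadjusted p under 0.05, beside 35.3% of all genes. Arntl measured 20.0, 13.9 and 14.8 CPM in sham and 28.9, 22.6 and 34.7 CPM at day 3, with all day 3 libraries above sham (log2 fold change 0.79 ± 0.29, SE; edgeR FDR-adjusted p = 0.0917). It measured 23.7, 17.3 and 28.5 CPM at day 7 and 18.7, 33.3 and 22.6 CPM at day 14, on both days overlapping sham. Nfil3 measured 8.47, 5.40 and 6.59 CPM in sham and 40.3, 12.6 and 24.5 CPM at day 3 (log2 fold change 1.87 ± 0.53, SE; edgeR FDR-adjusted p = 0.0562). Hlf measured 26.6, 29.8 and 28.6 CPM in sham and 5.82, 21.4 and 7.51 CPM at day 3 (log2 fold change -1.33 ± 0.44, SE; edgeR FDR-adjusted p = 0.0752). As in Dbp, replicate 2 of day 3 lay nearest to sham in all 3 of these genes. Hlf was below every sham library on each of the 3 days, with 14.4 to 18.8 CPM at day 7 and 11.9 to 24.5 CPM at day 14. Tef had a log2 fold change of -0.87 ± 0.33 (SE, edgeR FDR-adjusted p = 0.0990) at day 3.

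**Figure D5:**
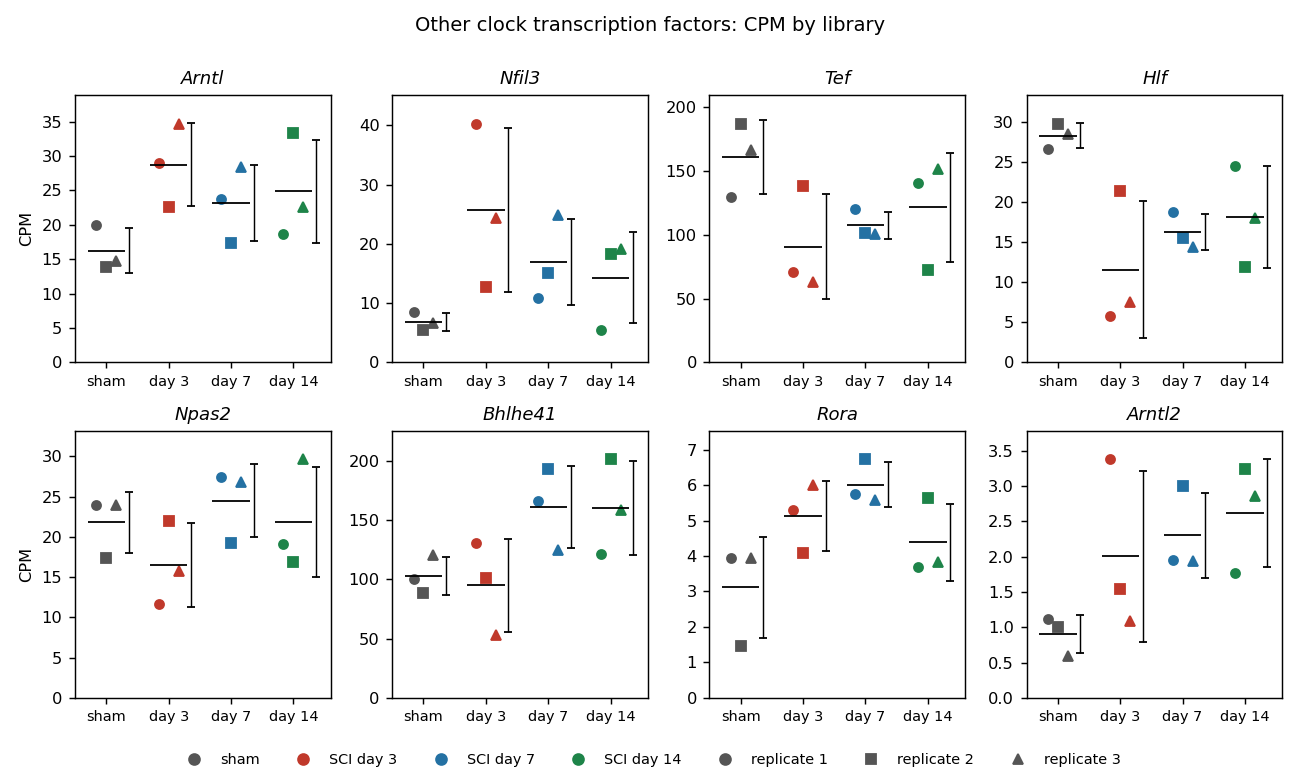
CPM (y axis, starting at 0) of 8 other clock transcription factors by group; points are libraries (marker shape gives the replicate), horizontal lines are group means and the bars beside them ± SD, n = 3. Hlf lies below its sham libraries (26.6 to 29.8 CPM) in all 9 SCI libraries, and SCI day 3 replicate 2 is nearest to sham at that day in Arntl, Nfil3, Tef and Hlf.

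Other lists tied to the clock are set beside the 6.70% of all genes called at day 3. Of 12 kinases, ligases and binding partners of the clock proteins 0 passed at day 3, and their median log2 fold change was 0.17. The nearest to the limit was Timeless, a replication fork protein that binds clock proteins in some species, at 1.66 ± 0.44 (SE, edgeR FDR-adjusted p = 0.0500131), followed by the deubiquitinase Usp2 at -0.82 ± 0.24 (SE, edgeR FDR-adjusted p = 0.0591). Of 10 clock output genes 0 passed, with a median of -0.0025. Of 11 glucocorticoid response genes 3 rose at day 3: the metallothioneins Mt2A and Mt1 and the NF-κB inhibitor Nfkbia, with log2 fold changes of 3.88, 2.98 and 1.91 (edgeR FDR-adjusted p = 0.0358, 0.0439 and 0.0369). The list's median was 1.18, beside 0.03 over all genes, with 10 genes positive and 1 negative. In edgeR 6 of 11 had an unadjusted p under 0.05, all higher, beside 35.3% of all genes. Among those that did not pass, Tsc22d3, a classical glucocorticoid target, had a log2 fold change of 0.06 (edgeR FDR-adjusted p = 0.901). Fkbp5 had one of 1.18 (edgeR FDR-adjusted p = 0.112). Of 13 immediate early genes 8 rose, against the same 6.70% of all genes, with a median of 2.05, among them Fos by 2.63 and Egr1 by 2.05 (edgeR FDR-adjusted p = 0.0323 for both). Per1 had a log2 fold change of 0.56 ± 0.33 (SE) at day 3 and did not pass. Whether it and these genes share a cause was not tested. At day 7 and day 14 none of these lists had a gene that passed.

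The genes with profiles most like those of the 2 clock genes with the smallest p over the 4 groups were taken from 11827 genes with a mean of at least 5 CPM. For Bhlhe40 they were the heat shock protein gene Hspb1 (Pearson's r = 0.92 over 12 libraries), Septin11 (0.92), the glycolytic regulator Pfkfb3 (0.91), podoplanin, Pdpn (0.91), and Plac8 (0.91). For Cry1 they were Lsm7 (0.94) of the RNA-binding Sm-like ring, Lamtor3 (0.90) of the Ragulator complex, the mitochondrial ribosomal gene Mrps18b (0.88), the tRNA splicing gene Tsen54 (0.88) and Slc25a5 (0.88), an ADP/ATP carrier. These values are the highest of many and are given as a description over libraries that share their groups.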

How the data were processed

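RNA from 12 samples was sequenced after SMARTer library preparation, per the labels' protocols. Per the file headers, the table holds counts of reads for each gene without normalisation. It also holds FPKM values, which the authors scaled by gene length and library total, per the file headers, and which served here to order levels between genes. The submitters' processing notes name GRCm38 and mm10, both builds of the mouse, although the identifiers are those of rat Ensembl genes. Aligner, counter and strandedness of counting: not given in the sources used here. Overlapping or near-identical genes are uncertain for that reason.

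The filter filterByExpr of edgeR was applied by group (18714 of 23526 kept), and counts were scaled with TMM and fitted with 1 mean per group over all 12 libraries (8 residual degrees of freedom; edgeR 4.0.16, R 4.3.3). Differences were tested by quasi-likelihood F tests in edgeR with Benjamini-Hochberg adjustment over all genes tested and a limit of 0.05. The SE is the log2 fold change divided by the root of F, so it restates the test. CPM is the count over the library total times 1e+06. Pairs were tested two-sided with 100000 permutations (scipy 1.17.1). No library was a copy of another (smallest chi-square per gene 54.5). Scripts were tested on simulated data.

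The clock genes, the other lists and the pairs were chosen with earlier results of these data known. All 10 clock genes are named; of other lists, genes that passed (at most 6 a list) and Arntl; Thra, Nfil3, Tef, Hlf, Timeless, Usp2, Tsc22d3 and Fkbp5 were named after their values were seen, and the genes most like a clock gene by rank of r. A symbol with several entries (167 in the table) was taken at the one with most counts. Alternatives were DESeq2 1.42.0, limma 3.58.1 voom with sample weights, other scaling and filters, the replicate block, only the groups compared, FPKM for the pairs, and each library left out.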

Additional observations from a re-analysis of the deposited data

How the results depend on the processing

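The number of clock genes called at day 3, 2 of 10, was 4 in DESeq2, 4 in limma voom and 1 without a filter, settings that called 27.5%, 33.3% and 3.12% of all genes tested. It was 0 in a fit of only the groups compared, which called 1 gene in all. It ran from 0 to 5 with each library left out in turn, reaching 5 without SCI day 3 replicate 2 (37.1% of all genes). Libraries were also left out by their tissue markers, settings chosen after seeing the data. The number was 0 without those rich in Schwann cell transcripts, where 0.0158% of all genes were called. It was 0 without those with erythrocyte or muscle transcripts (0.192% of all genes) and 5 without those with sensory ganglion transcripts (34.7%). Leaving out the libraries low in neuronal transcripts left 1 library at day 3, and no count is given for it. All genes called at day 3 numbered 1 to 7087 over the libraries left out and 1 to 6787 over the other settings. The erythrocyte or muscle libraries were SCI day 7 replicates 1 and 2, which are in neither group of the day 3 comparison. Those with sensory ganglion transcripts were SCI day 3 replicate 2 and SCI day 14 replicates 1 and 2. That setting thus again leaves out SCI day 3 replicate 2. The cause of the differences in counts was not tested.

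Replicate numbers gave no sign of pairing the samples. Over 18 same-number pairs the correlation of deviations ran from -0.34 to 0.25, and 6 were over 0.1. Of 12 libraries, 3 correlated best with their own number. Tissue markers differed within groups, so this check cannot exclude a paired design. With the replicate block 0 clock genes and 8 genes in all were called at day 3.

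In DESeq2, 1 clock gene was called at day 7 against sham (Bhlhe40; 2.74% of all genes), 1 from day 7 to day 14 (0.267%) and 1 from day 3 to day 14 (5.86%), Cry1 in both. Over the 4 groups DESeq2 called 3 (14.1% of all genes) and voom 2 (16.7%), and without the sensory ganglion libraries 3 were called (19.3%). With each library left out, the count ran from 0 to 1 from day 3 to day 7, 0 to 2 from day 3 to day 14 and 0 to 3 over the 4 groups, the higher value each time without SCI day 3 replicate 2, which called 18.9%, 22.8% and 22.7% of all genes there. Against sham at day 7 and day 14 it stayed at 0 of 10 in all 12.

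Of 720 values of single clock genes against sham under another setting, 14 turned sign, all of values that did not pass. Besides those given with the results, Nr1d1 turned to 0.17 at day 3 without the low neuronal libraries, and to 0.059 at day 3 and 0.079 at day 14 without the Schwann-rich ones, and Clock to -0.019 at day 7 without the latter. Without the sensory ganglion libraries Clock turned to -0.040 and Bhlhe40 to -0.061 at day 14. With each library left out, Nr1d1 ranged from -0.23 to 0.19 at day 3 and from -0.64 to 0.079 at day 14, Clock from -0.12 to 0.16 at day 7 and Cry1 from -0.040 to 0.15 at day 7.

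The pairs kept their direction with each library left out and on the FPKM scale. Dbp and Nr1d1 ranged from 0.42 to 0.74 and passed without SCI day 3 replicate 3 alone (r = 0.74, adjusted permutation p = 0.0117). Scaling by library size moved the median of all genes at day 3 from 0.03 to 0.07. Counts of 937 or more a gene and library leave replicate spread as the limit on precision.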
